A study of Mus musculus with 24 samples.

Results

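The complement genes and regulators described here are 7 genes of the 55487 in the deposited count table of Myc-CaP cells: C3, C4b, Cfb, Serping1, Cd55, Cd59a and Cd46. They were picked by gene symbol with C3 as the leading gene, with earlier results of these libraries known, so their differences between groups are described and not tested. Myc-CaP is a mouse prostate carcinoma line that overexpresses MYC. Bulk RNA sequencing was done on 24 libraries, 3 in each of 8 groups. All groups were the same line grown in serum-containing medium, treated for 6 days with renewal every 3 days, and all carry the batch label 1. The treated groups were etoposide, a topoisomerase II poison, at 500 nM, alisertib, an Aurora kinase A inhibitor, at 500 nM, docetaxel, a microtubule stabiliser, at 3.75 µM, and PF-06873600, which inhibits the cell cycle kinases CDK2, CDK4 and CDK6, at 500 nM. The other treated groups were T/P, palbociclib, which inhibits CDK4 and CDK6, at 1 µM, and Nutlin, which frees p53 from MDM2, at 500 nM. T/P was read as trametinib, a MEK inhibitor, at 25 nM with palbociclib at 1 µM, since trametinib is listed for no other group. The solvent DMSO was the control. The series was designed to compare treatments that induce senescence, a lasting arrest of the cell cycle.

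Complement is a cascade of plasma proteins that marks particles and cells for uptake and can open pores in membranes. The classical and lectin routes cleave C4 and C2, the alternative route uses factor B, and all routes meet at C3, whose fragments attach to surfaces and feed the terminal pore. The liver makes most plasma complement, and epithelial and tumour cells also transcribe some of its genes. Regulators hold the cascade in check. C1 inhibitor is secreted and blocks the first proteases, CD55 and CD46 act on the enzymes that cleave C3, and CD59 blocks the terminal pore.

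Total counts lay between 21260781 and 28318784 in 23 libraries and reached 69757257 in Docetaxel 1. Values are counts scaled to library size with TMM factors (CPM), or the deposited TPM, which also account for transcript length. The libraries numbered 2 were low in nuclear RNAs: Neat1 in them was 0.174 to 0.779 times the mean of the other libraries of the same group, in 8 of 8 groups. The epithelial adhesion gene Epcam averaged at most 0.025 CPM. Nothing in the labels ties the 3 libraries of a group to separate cultures, so the spread between them, and p-values that rest on it, may be technical.

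RefSeq promoter windows on GRCm38.p6, from 250 bases before to 50 bases after the annotated start, were matched for 4 of the 7 genes, namely C3, Cd55, Cd59a and Cd46. The windows of C3 and Cd59a are shown because these were the genes of the 4 whose levels stood apart from DMSO after docetaxel and alisertib. C3 lies at chr17:57203970-57228136 on the minus strand (mm10), and its window is chr17:57228087-57228386. Cd59a lies at chr2:104095801-104115354 on the plus strand, and its window is chr2:104095551-104095850. Capitals mark the motif matches.
C3 promoter: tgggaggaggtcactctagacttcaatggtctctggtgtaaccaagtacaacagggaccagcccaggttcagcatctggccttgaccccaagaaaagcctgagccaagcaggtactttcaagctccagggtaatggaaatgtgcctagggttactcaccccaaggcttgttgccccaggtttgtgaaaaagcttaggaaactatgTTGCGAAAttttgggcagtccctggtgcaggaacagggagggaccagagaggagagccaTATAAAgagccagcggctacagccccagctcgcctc
Cd59a promoter: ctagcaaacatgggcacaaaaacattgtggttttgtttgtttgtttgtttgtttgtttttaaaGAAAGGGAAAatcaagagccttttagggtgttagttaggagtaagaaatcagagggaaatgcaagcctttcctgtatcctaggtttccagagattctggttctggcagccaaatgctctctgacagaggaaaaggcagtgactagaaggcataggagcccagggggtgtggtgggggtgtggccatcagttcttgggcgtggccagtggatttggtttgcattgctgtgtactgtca
The windows were searched on both strands for the C/EBP letters TTGCNNAA, the interferon-stimulated response element, the STAT letters TTCNNNGAA, the AP-1 letters TGANTCA, the TATA box TATAAA and the NF-kB site. In C3 the capitals are the C/EBP match TTGCGAAA from base -45 to -38 and the TATA match from base 15 to 20, counted from the start. In Cd59a they are the interferon-stimulated match GAAAGGGAAA from base -187 to -178. The Cd46 window held the same element on its other strand, as TTTCCCTTTC from base 3 to 12. The Cd55 window held no match, and no 2 matches overlapped. Of 32851 promoter windows, 10.8% held the C/EBP letters, 13.6% the TATA box and 3.44% the interferon-stimulated letters. The NF-kB site was in 4.51%, the STAT letters in 8.3% and the AP-1 letters in 7.81%. A match is a description of letters and was not tested as a binding site.

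C3, the central protein of the cascade, was scarce in DMSO cells and abundant after etoposide, alisertib and docetaxel. The C3 counts were 3188, 4212 and 4384 after etoposide, 3769, 4576 and 3996 after alisertib, and 9689, 3733 and 3126 after docetaxel, against 53, 91 and 58 in DMSO. The 9689 counts came from Docetaxel 1, the deepest library, and on the depth-corrected scale that library had 127 CPM beside 144 and 114 CPM in the other docetaxel libraries. The lowest of these 9 treated libraries held 114 CPM and the highest DMSO library 3.77 CPM, so the groups lay far apart. C3 averaged 146 ± 21.5 CPM after etoposide, 152 ± 18.6 CPM after alisertib and 128 ± 14.7 CPM after docetaxel, against 2.8 ± 0.843 CPM in DMSO (SD, n = 3 each). The log2 fold changes were 5.70 ± 0.175 for etoposide, 5.76 ± 0.175 for alisertib and 5.51 ± 0.174 for docetaxel (standard error), or 52.2-fold, 54.2-fold and 45.7-fold. In bulk RNA, more cells with C3 RNA and more C3 RNA per cell cannot be told apart.

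PF-06873600 gave a middle level. The C3 counts were 912, 934 and 756, or 35.7, 37.6 and 28.6 CPM, which is above every DMSO library and below every library of the 3 groups just described. The log2 fold change against DMSO was 3.60 ± 0.174, or 12.1-fold. In the remaining treated groups C3 was lower than with PF-06873600 in every library. T/P libraries held 119, 128 and 112 C3 counts, palbociclib libraries 152, 124 and 129, and Nutlin libraries 87, 72 and 85. The T/P and palbociclib groups lay just above DMSO without overlap, with log2 fold changes of 0.74 ± 0.204 and 0.99 ± 0.201. The Nutlin range of 3.12 to 4.33 CPM overlapped the DMSO range of 2.31 to 3.77 CPM, with a log2 fold change of 0.41 ± 0.217. DMSO 2 was the highest DMSO library for C3, and without it the log2 fold changes were 0.99 for T/P, 1.23 for palbociclib and 0.69 for Nutlin.

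**Figure D1:**
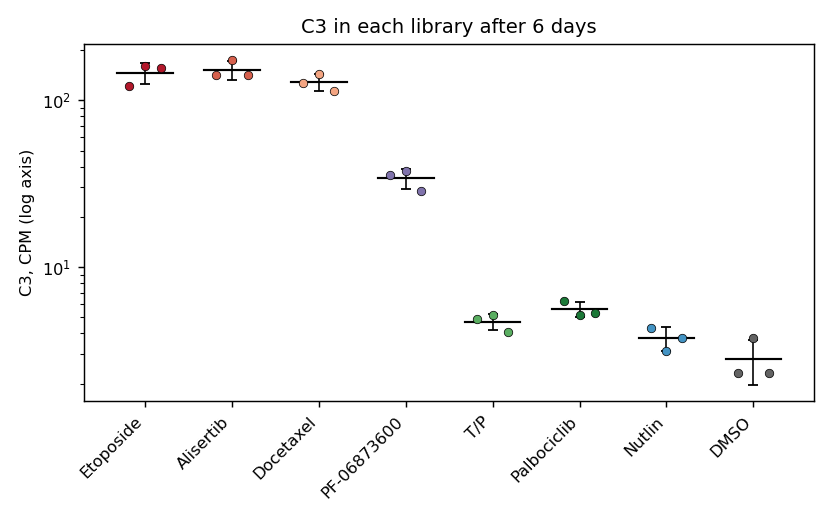
C3 in each of the 24 libraries after 6 days, in CPM on a log axis, by group, with the mean (line) and SD (bars) of 3 libraries. Etoposide, alisertib and docetaxel libraries lie between 114 and 174 CPM, PF-06873600 between 28.6 and 37.6 CPM, and the other groups at or under 6.21 CPM.

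By mean CPM the order of C3 was alisertib, etoposide, docetaxel, PF-06873600, palbociclib, T/P, Nutlin and DMSO. The ranges of the 3 highest groups overlapped each other, as did those of T/P and Nutlin and of Nutlin and DMSO. The ranges of docetaxel and PF-06873600, of PF-06873600 and palbociclib, and of palbociclib and T/P did not overlap with their neighbours in that order. Among the 24621 genes with a TPM, C3 ranked between 1463 and 1761 after alisertib, between 1566 and 2061 after etoposide and between 1796 and 2122 after docetaxel, where 1 is the most abundant. In PF-06873600 libraries it ranked between 5697 and 6686. In T/P, palbociclib and Nutlin libraries its ranks lay between 10670 and 11511, and in DMSO libraries between 11179 and 12422.

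C4b encodes the mouse C4 protein, which the classical and lectin routes cleave to build their C3-cleaving enzyme. It lies at chr17:34728380-34743882 on the minus strand. C4b counts were 49, 41 and 26 after etoposide, 56, 44 and 46 after alisertib and 198, 77 and 84 after docetaxel, against 5, 3 and 2 in DMSO. The groups did not overlap in CPM, and docetaxel, at 2.59 to 3.07 CPM, also lay above alisertib, at 1.63 to 2.1 CPM. The log2 fold changes against DMSO were 3.34 ± 0.511 for etoposide, 3.65 ± 0.503 for alisertib and 4.32 ± 0.489 for docetaxel. Docetaxel gave the highest mean of C4b, 2.87 ± 0.255 CPM, whereas alisertib gave that of C3.

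In the other groups C4b was at the edge of detection. Counts were 10, 10 and 22 with PF-06873600 and 10, 9 and 12 with palbociclib, and both groups lay above DMSO without overlap. T/P gave 11, 2 and 12 counts and Nutlin 9, 2 and 7, and both overlapped DMSO. T/P 2 and Nutlin 2 were the low libraries. Of the 150-base stretches of the C4b transcript, 8.26% are identical in C4a, its tandem copy at chr17:34809092-34823464, so reads may be split between the pair, and how the authors treated such reads is not given in the sources used here.

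Cfb encodes factor B, the protease of the alternative route, and lies at chr17:34856374-34862518 on the minus strand, beside C2. Cfb had 0 counts in all 3 DMSO libraries and at least 1 count in every treated library. The summed counts of 3 libraries were 19 for etoposide, 11 for alisertib, 21 for docetaxel, 6 for PF-06873600, 11 for T/P, 9 for palbociclib and 12 for Nutlin. A bound set the pooled treated level, as counted, against the 3 counts over the DMSO group that a count of 0 allows. It was 5.68-fold for etoposide, 4.38-fold for Nutlin and 3.89-fold for docetaxel. For PF-06873600 it was 1.88-fold. Of the 21 docetaxel counts, 17 came from Docetaxel 1, and without that library the docetaxel bound was 1.80-fold. Without Nutlin 2, which held 7 of the 12 Nutlin counts, the Nutlin bound was 2.81-fold, and without DMSO 3 the etoposide, Nutlin and docetaxel bounds were 3.70-fold, 2.86-fold and 2.53-fold, settings chosen after the data were seen. The highest single library was Etoposide 2 with 10 counts, or 0.383 CPM, and the gene did not pass the filter on low counts. These bounds cover counting error in DMSO and not in the few treated counts, so a small bound such as that of PF-06873600 does not show a rise.

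Among the regulators, Serping1, which encodes the secreted C1 inhibitor, had the highest TPM of the members in DMSO cells, and its groups came in another order than those of C3. It lies at chr2:84765387-84775444 on the minus strand. Serping1 libraries held 6.18, 10.5 and 8.92 CPM with Nutlin and 7.39, 7.62 and 6.01 CPM with alisertib, against 5.02, 3.73 and 4.63 CPM in DMSO. Both treated groups lay above DMSO, with log2 fold changes of 0.94 ± 0.184 for Nutlin and 0.65 ± 0.184 for alisertib. Nutlin 2 was the highest and DMSO 2 the lowest of these libraries. Without the libraries numbered 2 the log2 fold changes were 0.64 for Nutlin and 0.47 for alisertib.

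Palbociclib gave the lowest Serping1, at 3.39, 3.36 and 2.43 CPM, below every DMSO library, with a log2 fold change of -0.54 ± 0.196. Etoposide libraries held 3.33 to 4.19 CPM, docetaxel 4.81 to 6.25 CPM, PF-06873600 3.98 to 5.28 CPM and T/P 3.37 to 4.32 CPM, all overlapping DMSO. Etoposide and alisertib, which gave C3 ranges that overlapped, gave Serping1 ranges that did not, at 3.33 to 4.19 CPM and 6.01 to 7.62 CPM. The log2 fold change of etoposide against alisertib was -0.89 ± 0.185 for Serping1 and -0.06 ± 0.126 for C3.

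Cd59a encodes the membrane protein that blocks the terminal pore. Its counts were 31, 32 and 33 after alisertib and 101, 36 and 33 after docetaxel, against 5, 19 and 8 in DMSO. In CPM, alisertib held 1.16 to 1.21 and docetaxel 1.21 to 1.39, above the DMSO range of 0.218 to 0.788. The log2 fold changes were 1.41 ± 0.390 for alisertib and 1.55 ± 0.383 for docetaxel. The DMSO range was wide because of DMSO 2, and without that library the log2 fold changes were 2.11 and 2.22.

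With Nutlin, Cd59a was at 3, 4 and 3 counts, or 0.132 to 0.173 CPM, below every DMSO library. The log2 fold change was -1.52 ± 0.522 with all libraries and -0.81 without DMSO 2. Etoposide and PF-06873600 libraries overlapped DMSO only through DMSO 2, with log2 fold changes of 0.72 ± 0.405 and 1.02 ± 0.400, or 1.42 and 1.68 without that library. T/P and palbociclib overlapped DMSO, at 0.285 to 0.64 CPM and 0.206 to 0.531 CPM. No 150-base stretch of the Cd59a transcript was identical in its neighbour Cd59b.

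Cd46, which encodes a membrane cofactor for the inactivation of C3 fragments, lies at chr1:195036826-195092249 on the minus strand. In mice its protein is best known from the sperm head, unlike the broad human pattern. Palbociclib libraries held 44, 37 and 48 Cd46 counts, or 1.54 to 1.98 CPM, against 19, 10 and 22 counts, or 0.414 to 0.877 CPM, in DMSO. The palbociclib and DMSO groups did not overlap, and the log2 fold change was 1.32 ± 0.549. Cd46 was not called there (edgeR, Benjamini-Hochberg), and 26.7% of all genes lay higher with palbociclib than in DMSO without overlap. Every other treated group overlapped DMSO, and Cd46 in etoposide libraries, 0.458 to 0.747 CPM, had the lowest mean of all groups.

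The library numbered 2 was the low or a low library for Cd46 in 8 of 8 groups, at 0.203 to 0.813 times the mean of the other libraries of its group. Neat1 and the other nuclear RNA, Malat1, were low in the same libraries, Malat1 at 0.416 to 0.764 times. C4b was low there in 6 of 8 groups, down to 0.18 times with T/P, and C4a in 7 of 8. C3 was low there in 2 of 8 groups, Serping1 in 4 of 8 and Cd59a in 1 of 8. The part of these libraries in the Cd46 and C4b values was not tested, and without them the log2 fold change of Cd46 after palbociclib was 1.12.

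Cd55, at chr1:130439027-130462744, encodes the membrane protein that speeds the decay of the C3-cleaving enzymes. It had 1 count in alisertib libraries, 2 counts in docetaxel libraries and 0 in the other 6 groups, and it is not listed among the genes with a TPM. At this depth a difference in Cd55 between groups was not detectable. Its tandem copy Cd55b had 0 counts in all libraries.

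**Figure D2:**
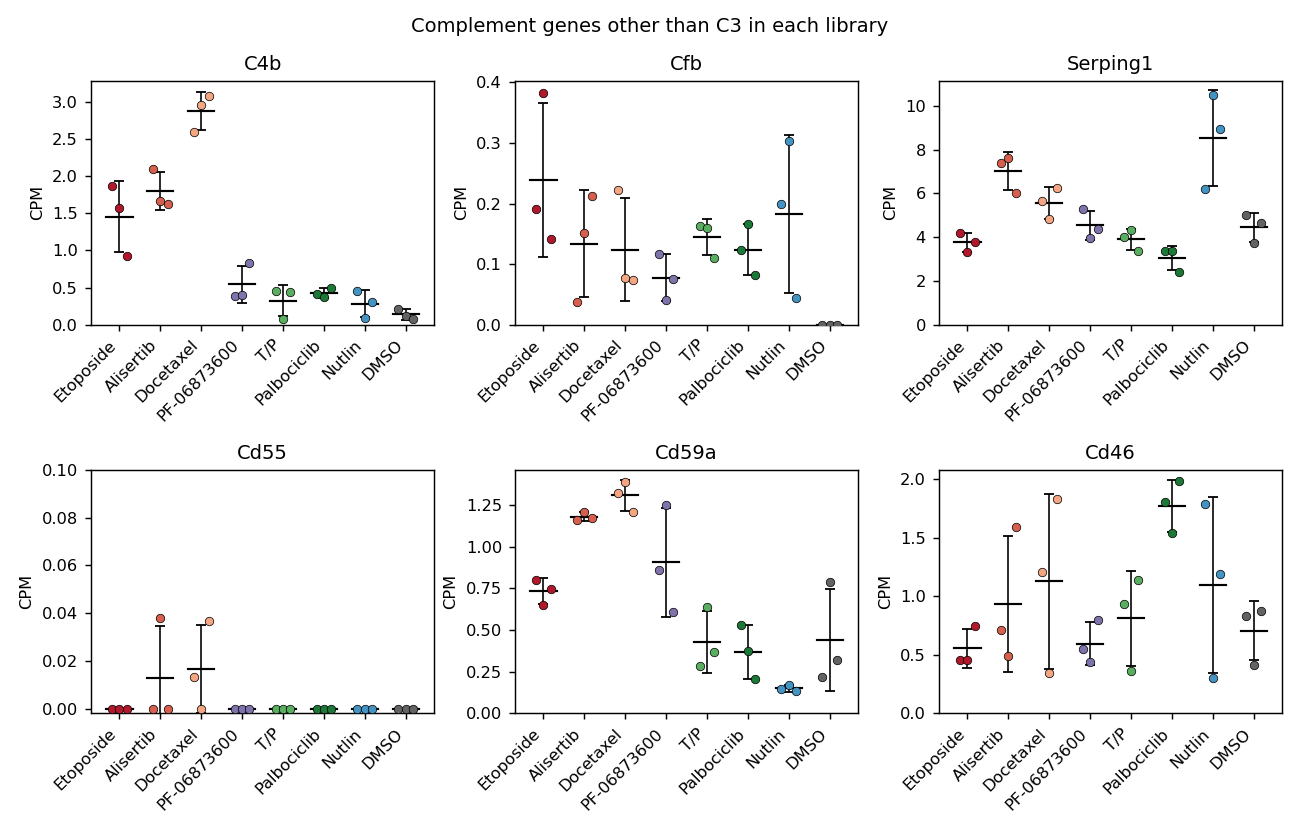
CPM of C4b, Cfb, Serping1, Cd55, Cd59a and Cd46 in each of the 24 libraries, on linear axes that differ between panels, with the mean (line) and SD (bars) of 3 libraries. C4b is highest after docetaxel, at 2.59 to 3.07 CPM, Serping1 after Nutlin, at 6.18 to 10.5 CPM, and Cd46 after palbociclib, at 1.54 to 1.98 CPM.

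On the length-corrected scale the members changed their order between groups. After alisertib, C3 had 98.7 ± 8.08 TPM, Serping1 10.1 ± 0.516 TPM, Cd59a 2.19 ± 0.147 TPM, C4b 1.06 ± 0.145 TPM and Cd46 0.425 ± 0.299 TPM. In DMSO, C3 had 1.52 ± 0.429 TPM and Serping1 5.38 ± 0.848 TPM, and Serping1 was the higher of the pair in each DMSO library. At the RNA level C3 stood above each regulator among the members after alisertib, and below C1 inhibitor in DMSO.

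The membrane regulator gene Cr1l encodes Crry, the rodent protein that does on most mouse cells what CD55 and CD46 do on human cells. It lies next to Cd46, and no 150-base stretch of the Cd46 transcript was identical in it. Cr1l averaged 9.28 ± 0.902 TPM in alisertib libraries, its highest group mean, and 7.98 ± 0.701 TPM in DMSO libraries, its lowest. It was called in none of the 7 comparisons with DMSO (edgeR, Benjamini-Hochberg), where its log2 fold changes lay between -0.17 and 0.09. The value for alisertib was -0.04, so alisertib lay above DMSO in TPM but not on the TMM scale. The order of the Cr1l groups thus depends on the scale. The ratio of C3 to Cr1l in TPM was 11 ± 1.55 after etoposide, 10.7 ± 1.06 after alisertib and 9.86 ± 1.57 after docetaxel, against 0.189 ± 0.0351 in DMSO. With PF-06873600 the ratio was 2.41 ± 0.355. It was 0.3 ± 0.0141 with T/P, 0.376 ± 0.0593 with palbociclib and 0.25 ± 0.0702 with Nutlin.

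**Figure D3:**
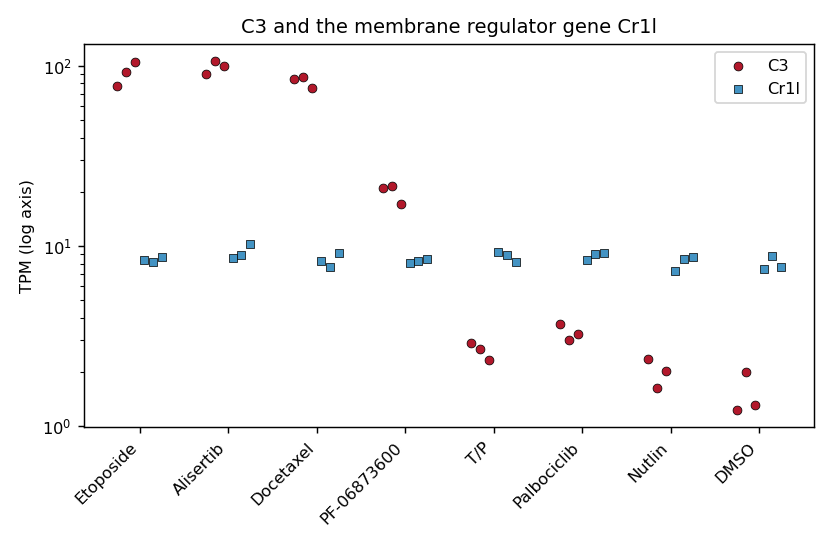
TPM of C3 (circles) and of Cr1l (squares) in each library, on a log axis. Cr1l stays near the same level in all groups, with group means between 7.98 and 9.28 TPM, while C3 is above it in the first 4 groups and below it in the last 4.

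The members' place among all genes was as follows. Called genes are those with an adjusted p below 0.05 (edgeR quasi-likelihood test, Benjamini-Hochberg over 15527 genes). Of the 7 members, 5 passed the filter on low counts, and Cfb and Cd55 did not. C3 and Serping1 stood above the filter's level of 0.393 CPM in all DMSO libraries, so C4b, Cd59a and Cd46 passed it through other libraries. Of these 5, 2 were called higher after etoposide, where 54.6% of all genes were called in either direction and 27.7% were called higher. After alisertib 4 were called higher, beside 53.9% of all genes in either direction and 27.8% higher, and after docetaxel 3, beside 49% and 26.5%. With PF-06873600 2 were called higher, beside 32% and 17.9%, and with T/P 1 was, beside 29.7% and 15.1%. Palbociclib had 2 called higher and 1 lower, beside 35.9% of all genes in either direction, 18.5% higher and 17.4% lower. Nutlin had 1 higher and 1 lower, beside 19.4%, 8.02% and 11.4%. Leaving out 1 library ended the call of C3 with T/P (DMSO 1 or 3), of C4b with PF-06873600 (DMSO 3 or PF-06873600 3) and of C4b with palbociclib (DMSO 2, DMSO 3 or any palbociclib library). It also ended the call of Serping1 with palbociclib (DMSO 1, DMSO 3 or Palbociclib 3) and that of Cd59a with Nutlin (DMSO 2 or any Nutlin library). Standing apart from DMSO without overlap was also frequent. Among all genes, 28.7% lay higher in this way after etoposide, 29.1% after alisertib, 29.5% after docetaxel and 24% with PF-06873600. These shares were 19.4% with T/P, 26.7% with palbociclib and 13% with Nutlin. Lower without overlap lay 23.5% of all genes with palbociclib and 15.7% with Nutlin. The counts of members describe genes picked with the results known, and nothing is read from them.

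Treatments were also set against each other. PF-06873600 and palbociclib share the targets CDK4 and CDK6 and differ in CDK2 and in dose, 500 nM and 1 µM, which cannot be told apart. C3 was 6.10-fold higher with PF-06873600 than with palbociclib, with a log2 fold change of 2.61 ± 0.158. Cd59a held 0.606 to 1.25 CPM with PF-06873600 and 0.206 to 0.531 CPM with palbociclib, and Serping1 3.98 to 5.28 CPM and 2.43 to 3.39 CPM, without overlap. Cd46 lay the other way, at 0.442 to 0.795 CPM with PF-06873600 and 1.54 to 1.98 CPM with palbociclib. Of all genes, 26.1% lay higher without overlap in this comparison and 23.9% lower. In that comparison 3 members were called higher and 1 lower, beside 26.1% of all genes in either direction, 14.4% higher and 11.7% lower. C3 was the member whose call outlasted the loss of any 1 of the 6 libraries.

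T/P and palbociclib differ by trametinib. C3 held 4.1 to 5.12 CPM with T/P and 5.15 to 6.21 CPM with palbociclib, which do not overlap, with a log2 fold change of -0.25 ± 0.184. Cd46 held 0.36 to 1.14 CPM with T/P and 1.54 to 1.98 CPM with palbociclib, also without overlap. These are 2 of the 5 tested members, beside 17.1% of all genes that lay lower with T/P without overlap. Here 0 of the 5 members were called by edgeR or DESeq2, beside 4.1% of all genes, and 1 had an unadjusted p under 0.05 in edgeR.

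Docetaxel and alisertib both act on mitosis and gave C3 ranges that overlapped, 114 to 144 CPM and 141 to 174 CPM. By edgeR and by DESeq2 0 of the 5 members were called between them, beside 17.4% of all genes, and 0 had an unadjusted p under 0.05 in edgeR. C4b was the 1 of the 5 whose ranges did not overlap there, higher with docetaxel, beside 17.8% of all genes. Between etoposide and alisertib 1 member, Serping1, was called lower, beside 14.7% of all genes in either direction and 7.75% lower. Cd59a lay lower with etoposide, at 0.651 to 0.801 CPM, than with alisertib, at 1.16 to 1.21 CPM, without overlap, and 14.3% of all genes lay lower without overlap in this comparison.

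Of 54 other complement genes listed by their role in the cascade, 19 passed the filter, and 9 of these stood above its level in all DMSO libraries. The others passed through treated libraries in which they were high, so the counts of rises are partly set by the filter. Those that did not pass include Cfi, which encodes the plasma regulator factor I, and the terminal genes Hc and C9. Of the 19 tested, 11 rose and 2 fell after etoposide, 11 rose and 1 fell after alisertib, 10 rose and 1 fell after docetaxel and 7 rose with PF-06873600 (edgeR, Benjamini-Hochberg). In either direction these are 68.4%, 63.2%, 57.9% and 36.8% of the 19, beside 54.6%, 53.9%, 49% and 32% of all genes. Of all genes, 27.7%, 27.8%, 26.5% and 17.9% were called higher. With T/P 4 rose and 1 fell, with palbociclib 3 rose and 2 fell, and with Nutlin 2 rose and 2 fell. These are 26.3%, 26.3% and 21.1% of the 19, beside 29.7%, 35.9% and 19.4% of all genes. The median log2 fold change of the 19 was 1.40 after etoposide, 1.28 after alisertib, 1.35 after docetaxel and 0.71 with PF-06873600, and the median of all genes lay between 0 and 0.04. Among the 9 alone, 2 rose and 2 fell after etoposide and 2 rose and 1 fell after alisertib or docetaxel, with medians of -0.13, -0.05 and 0.18. Called among the 9 were 44.4%, 33.3% and 33.3%, below the shares of all genes.

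The first proteases of the classical route were among the called genes. C1s1 encodes C1s, which cleaves C4 and C2, and it passed the filter only through treated libraries in which it was high, so no p-value is given for it. Its counts were 134, 162 and 157 after etoposide, against 3, 2 and 3 in DMSO. The log2 fold change of C1s1 was 5.61 ± 0.332 after etoposide, 5.37 ± 0.334 after alisertib, 4.83 ± 0.339 after docetaxel and 3.27 ± 0.381 with PF-06873600. C1ra encodes C1r, which activates C1s, and it averaged 5.84 CPM after etoposide, against 2.39 CPM in DMSO. C1ra rose after etoposide by 1.28 ± 0.193 on the log2 scale (edgeR adjusted p = 5.33e-06), and it fell by 1.03 with T/P (adjusted p = 0.000915) and by 0.86 with palbociclib (adjusted p = 0.00367). In PF-06873600 libraries C1ra was 0.61 above DMSO (adjusted p = 0.0213), a call lost when DMSO 1, DMSO 3, PF-06873600 1 or PF-06873600 3 was left out.

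Of the 8 tested genes of the classical and lectin start, 7 were called higher after each of etoposide, alisertib and docetaxel, beside 27.7%, 27.8% and 26.5% of all genes, and C2 was not called. C1s1, C1s2, C1rl, Masp1 and Colec11 passed the filter through treated libraries, so that count is partly set by it. Of the 3 that stood above the filter's level in DMSO, C1ra and C4a rose after each of these treatments. C4a is annotated as a processed transcript and not as protein coding, and it was low in the libraries numbered 2 in 7 of 8 groups. The median log2 fold change of all 8 was 2.89 after etoposide, or 2.77 with the genes at 0 in DMSO set to their bound. For the 3 above the filter's level in DMSO the median was 1.28. Colec11, a lectin that starts the lectin route, had its highest log2 fold change after docetaxel, 2.17 ± 0.368. C4a rose after etoposide, by 1.40 ± 0.494 (adjusted p = 0.0194), a call lost when DMSO 2, Etoposide 1 or Etoposide 3 was left out. Masp1, C1s2 and Itgax, named after their values were seen, had 0 counts in DMSO and 60, 51 and 33 counts over the etoposide libraries. Their bounds were 17.9-fold, 15.2-fold and 9.86-fold, with counting error covered in DMSO only.

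Of the other groups, 3 receptor genes were tested, and Itgb2 and Itgax rose while C1qbp fell after etoposide. Itgb2, a chain of the complement receptors of leukocytes, rose by 3.64 ± 0.449 on the log2 scale after etoposide. Itgb2, Itgax, C7 and C4bp also passed the filter through treated libraries. Of 3 terminal genes 1 rose, C7, and of 3 soluble regulators C4bp rose and Vtn fell after etoposide. Beside these stood 54.6% of all genes called after etoposide, 27.7% higher and 26.9% lower, so nothing is read from such small counts. Vtn, vitronectin, fell by 1.21 (adjusted p = 0.0223), a call lost when DMSO 1, DMSO 3 or Etoposide 3 was left out. Properdin, encoded by Cfp, was the tested gene of the alternative route and was called in no comparison with DMSO, and its log2 fold changes are in the heat map.

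**Figure D4:**
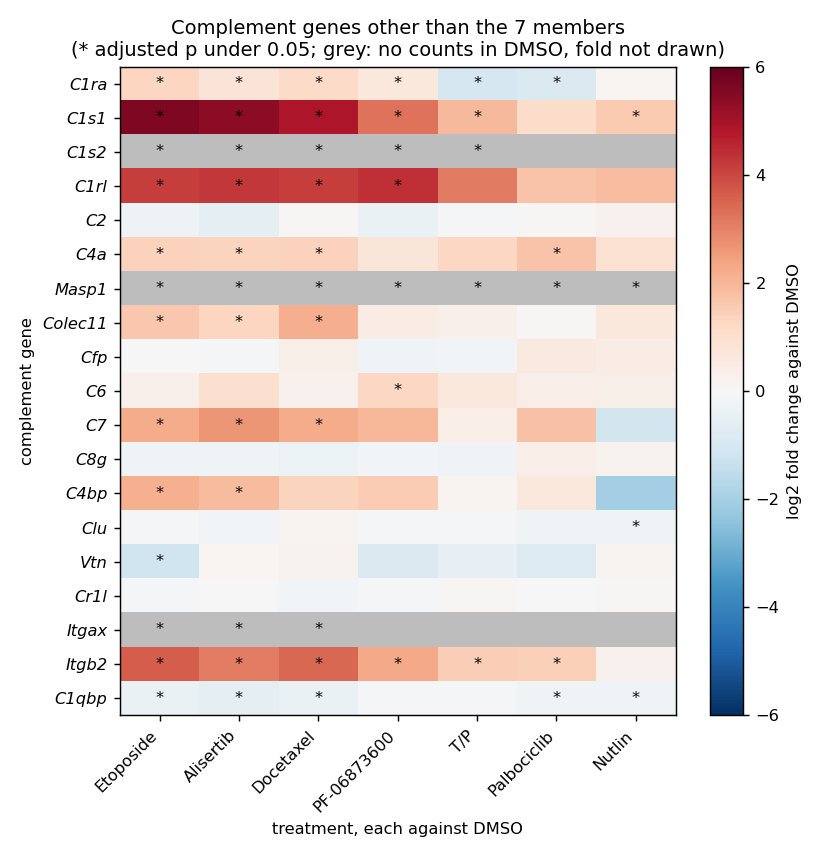
Log2 fold change against DMSO (colour) of the 19 other complement genes tested, for 7 treatments. Asterisks mark an adjusted p under 0.05, and grey rows are genes with 0 counts in DMSO. Genes of the classical and lectin start fill the upper rows, where 7 of 8 were called higher after etoposide, alisertib and docetaxel, 5 of them genes that passed the filter through treated libraries.

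Between treatments, 3 of the 19 rose with PF-06873600 relative to palbociclib, namely C1ra, C1s1 and C1rl. That is 15.8% of the 19, beside 26.1% of all genes in either direction and 14.4% higher. Clu rose with docetaxel relative to alisertib, by 0.35 ± 0.0845 (edgeR adjusted p = 0.00609). It was the gene called of the 19, beside 17.4% of all genes. With a replicate block 2 were called, beside 25.4% of all genes. Vtn fell with etoposide relative to alisertib, by 1.33 (adjusted p = 0.039), where 14.7% of all genes were called. With a replicate block 3 of the 19 were called there, beside 23.4% of all genes. The Clu call was lost without Docetaxel 2, and the Vtn call was lost without Alisertib 2, Alisertib 3 or Etoposide 2. Between T/P and palbociclib 0 of the 19 were called by edgeR or DESeq2, and 3 had an unadjusted p under 0.05 in edgeR. Of all genes, 4.1% were called there by edgeR.

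Markers of other cells also differed between groups. Of 7 endothelial markers 3 were tested, and the sum of the 7 was 7.36 to 8.35 CPM after etoposide, 5.16 to 6.08 after alisertib, 3.65 to 5.38 after docetaxel and 2.25 to 2.91 with PF-06873600, against 0.199 to 0.698 in DMSO. With T/P, at 1.48 to 2.12 CPM, and palbociclib, at 1.8 to 2.06 CPM, where C3 was low, it also lay above DMSO. With Nutlin, at 0.0883 to 0.606 CPM, it overlapped DMSO. Vwf, which encodes von Willebrand factor, made 6.38 CPM of the sum after etoposide, while Cdh5 averaged 0.089 CPM and Emcn was at 0 there. Of 7 macrophage markers 2 were tested, and the sum of the 7 was 3.06 to 4.88 CPM after etoposide and 3.53 to 4.65 after alisertib, against 1.45 to 2.91 in DMSO. It was 4.32 to 4.74 CPM with palbociclib, where C3 was low, and 2.46 to 4.15 after docetaxel and 2.53 to 3.63 with PF-06873600, both overlapping DMSO. The pan-leukocyte gene Ptprc had 3 counts over the etoposide libraries. Of 5 hepatocyte markers 1 was tested, Ttr, and the sum of the 5 was 11.4 to 11.8 CPM after docetaxel and 2.06 to 3.3 after alisertib. It was 1.28 to 2.18 CPM after etoposide, 1.52 to 1.89 with PF-06873600 and 1.39 to 2.28 with palbociclib, against 0.912 to 1.31 in DMSO. Alb averaged at most 0.0865 CPM in any group. Epithelial markers numbered 5, of which 3 were tested. The sum of the 5 was below DMSO, at 106 to 117 CPM, in every treated group. It was 10.2 to 12.5 CPM after etoposide, 13.8 to 16.2 after alisertib, 19.9 to 27 after docetaxel and 36.4 to 39.9 with PF-06873600. With T/P it was 28.8 to 36.7 CPM, with palbociclib 29.5 to 33.9 and with Nutlin 26.1 to 63.5. Prostate luminal markers summed to 1540 to 1910 CPM after etoposide, the lowest group, 2580 to 2700 with palbociclib, the highest, and 2180 to 2580 in DMSO. Fibroblast markers, 3 of 7 tested with Lum at 0 in all libraries, summed to 17.4 to 24.7 CPM after etoposide, 27.8 to 29.3 after alisertib, 26.3 to 27.4 after docetaxel and 24.8 to 27.7 with PF-06873600, against 13.5 to 22 in DMSO. Of these the etoposide range alone overlapped DMSO. The part of other cells in the C3 values was not tested.

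The genes with a profile most like C3 were sought by the root mean square difference between group means of log2 CPM. Each gene was centred on its mean over the 8 groups. The search covered 9563 genes that averaged 5 CPM or more over all libraries. Symbols that begin with Gm and a digit or end in Rik were left out. The nearest were Aqp1, a water channel, at 0.411, and Cd74, the invariant chain of MHC class II, at 0.722. Aldh3a1, an aldehyde dehydrogenase, followed at 0.84, Apol9a at 0.928 and Tnfaip2 at 0.951. Aqp1 averaged 12.2 CPM after etoposide, 8.64 after alisertib and 16.5 after docetaxel, against 0.124 CPM in DMSO. Cd74 averaged 10.4, 15.7 and 31.9 CPM in these groups, against 0.0688 CPM in DMSO, and so, like C4b, it was highest after docetaxel. With TPM in place of CPM, 3 of the 5 were shared. The 5 reached the mean of 5 CPM through groups in which they were high. They were chosen for their likeness to C3, so nothing is read from the shared pattern.

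**Figure D5:**
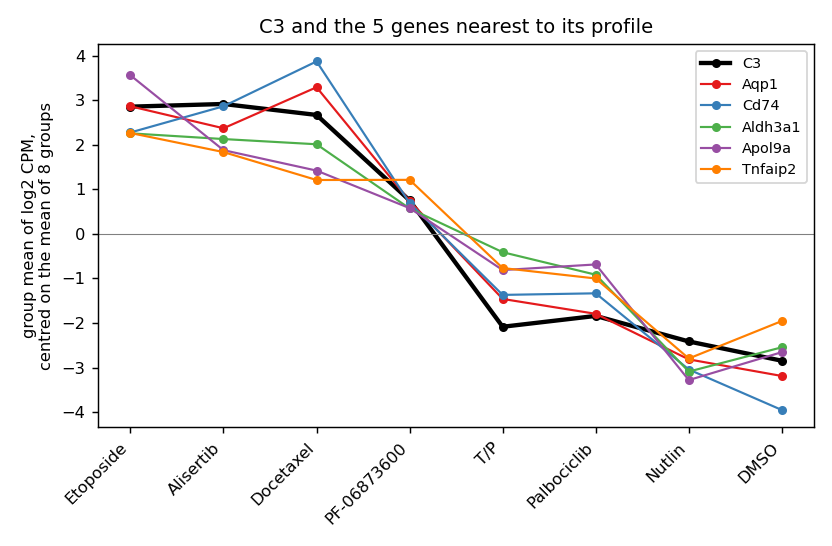
Group means of log2 CPM, centred on the mean of the 8 groups, for C3 (black) and the 5 genes nearest to its profile. All 6 are above their mean in the first 4 groups and below it in the last 4, and all are lowest with Nutlin or DMSO. The 5 genes were picked for this likeness over the same groups, so the shared pattern is set by the choice.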

How the data were processed

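Total RNA of the cells was sequenced as 150-base paired-end reads, per the labels' protocols. Per the submitters' processing notes, the authors used fastp, STAR, featureCounts and DESeq2 with the mouse build mm10. Versions, strand setting, annotation and the treatment of multiply aligned reads are not given in the sources used here. The authors deposited raw counts per gene for 55487 genes. They also deposited TPM for 24621 genes, those with at least 10 counts over all libraries. The symbols of the 7 members are those of the count table, and their positions come from GENCODE on mm10.

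One edgeR 4.0.16 quasi-likelihood fit (R 4.3.3) held all 24 libraries, scaled by TMM, and had 16 residual degrees of freedom. Low genes were removed by filterByExpr (minimum count 10, minimum total 15), which kept 15527. P-values were two-sided and adjusted by the Benjamini-Hochberg method over these genes, with a threshold of 0.05. Errors are standard errors for log2 fold changes and SDs of 3 libraries for levels. The lowest total count was 21260781, and floors for a count of 0 used 3 counts over the group. The 24 pairs of libraries within a group differed by more than sampling noise, with a chi-square per degree of freedom of 2.91 to 54. The test was run on simulated counts first.

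The members and gene lists were chosen with earlier results of these data known. Listed genes were named where they were called with at least a 2-fold change against DMSO and reached a mean of 1 CPM in a group, and the 5 genes nearest to C3 by profile were named. The alternatives tried were DESeq2 1.42.0, RLE factors, scaling by total counts alone, no filter, at least 1 CPM in 3 libraries, fits of only the 2 groups compared, a replicate block, no libraries numbered 2, limma 3.58.1 on log2(TPM + 1) with a pseudocount of 1, and leaving out each library. The labels do not tie libraries of the same number, but their deviations from the group means correlated above 0.1 for every number in 5 of 11 comparisons. These were etoposide, alisertib and PF-06873600 against DMSO, and docetaxel and etoposide against alisertib.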

Additional observations from a re-analysis of the deposited data

How the results depend on the processing

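No result changed its direction among called values. The log2 fold change of C3 moved by more than the spread between libraries only in limma on log2(TPM + 1), where the pseudocount shrinks low values: 5.20 for etoposide, 5.32 for alisertib, 5.05 for docetaxel and 3.06 for PF-06873600 against DMSO, and 2.27 for PF-06873600 against palbociclib. Of the alternatives for the other 4 tested members, 12 moved and 641 did not, by the same rule. The spread was the larger SD of log2 CPM of the 2 groups, which was wide for low genes, for example 0.808 for Cd59a in DMSO. Large shifts thus count as not moved, such as Cd59a after etoposide from 0.72 to 1.5 without the libraries numbered 2.

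The count of other complement genes called moved more, and the causes were not tested beyond the numbers of genes and libraries that enter. With at least 1 CPM in 3 libraries, 13 genes were tested, and 8 were called after etoposide, 7 after alisertib, 7 after docetaxel, 4 with PF-06873600 and 2 for etoposide against alisertib. The shares of all genes were 59%, 57.6%, 50.9%, 37.3% and 19.3%. With no filter, the fit held 35598 genes and was not limited to the 19. There, 17 were called after docetaxel, 1 for T/P against palbociclib, 6 for PF-06873600 against palbociclib and 0 for etoposide against alisertib. Beside them stood 23.6%, 3.32%, 10.7% and 6.24% of all genes. In fits of only the 2 groups, 2 were called with PF-06873600, 2 with T/P and 1 with Nutlin, beside 34.5%, 27.6% and 13.1% of all genes. There, 5 were called for PF-06873600 against palbociclib, 2 for docetaxel against alisertib and 0 for etoposide against alisertib. For these, 43.1%, 15.1% and 8.38% of all genes were called. The limma fit on log2(TPM + 1) held all 24621 genes with a TPM and was not limited to the 19 tested elsewhere. In it, 19 listed genes were called after docetaxel, 1 with T/P, 2 with palbociclib and 2 with Nutlin. Beside them stood 40.2%, 14.6%, 18.8% and 9.91% of all genes. That fit called 3 for docetaxel against alisertib and 2 for etoposide against alisertib, beside 13.1% and 9.15%. For etoposide against alisertib total counts gave 3 and DESeq2 gave 2, beside 16.6% and 18.5%. Without the libraries numbered 2, 3 were called with palbociclib, 2 with Nutlin and 0 for etoposide against alisertib, beside 29.5%, 17.8% and 7.93% of all genes. Leaving out each library in turn gave 3 to 4 with T/P, 3 to 7 with palbociclib, 1 to 3 with Nutlin, 0 to 1 for docetaxel against alisertib and 0 to 1 for etoposide against alisertib.

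With the replicate block, 2 were called for T/P against palbociclib, 6 for PF-06873600 against palbociclib, 2 for docetaxel against alisertib and 3 for etoposide against alisertib. The block called 16.1%, 36.7%, 25.4% and 23.4% of all genes in these comparisons. With it the log2 fold change of C3 after etoposide was 5.71. Numbers were taken to pair libraries in 5 comparisons, and there the block moved no other count by over 1.5 times. With total counts as the scaling, the median log2 fold change over all genes lay higher by 0.21 for etoposide, 0.2 for alisertib and 0.21 for docetaxel. Depth limits C4b, Cfb, Cd59a, Cd46 and Cd55, whose counts in DMSO libraries are low.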

Other observations

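C3 is also an acute phase gene, and its transcription is known to respond to NF-kB, C/EBP and interferon signals. Of 13 tested genes for factors and cytokines known to act on complement transcription, 10 rose and 3 fell after etoposide, 9 rose and 3 fell after alisertib and 9 rose and 2 fell after docetaxel (edgeR, Benjamini-Hochberg). With PF-06873600 8 rose and 2 fell, with T/P 6 rose and 2 fell, with palbociclib 5 rose and 1 fell, and with Nutlin 3 rose. Over all genes, 54.6% were called after etoposide, 53.9% after alisertib, 49% after docetaxel, 32% with PF-06873600, 29.7% with T/P, 35.9% with palbociclib and 19.4% with Nutlin. The noncanonical NF-kB genes were among the rises: Relb averaged 24.5 CPM after etoposide and 3.4 CPM in DMSO (adjusted p = 7.48e-15), and Nfkb2 125 CPM and 41.3 CPM (adjusted p = 6.41e-15). The interferon-linked Irf7 averaged 12.1 CPM after etoposide and 1.29 CPM in DMSO (adjusted p = 5.96e-09). Cebpa, which encodes a C/EBP factor, fell to 158 CPM after etoposide, against 289 CPM in DMSO (adjusted p = 2.24e-08), and Cebpd fell to 3.43 CPM, against 8.19 CPM (adjusted p = 3.09e-06). Whether these genes act on C3 here was not tested.

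Of 13 tested acute phase genes, 7 rose after each of etoposide, alisertib, docetaxel and PF-06873600, 6 with T/P or palbociclib and 3 with Nutlin. After each of etoposide, alisertib, T/P and palbociclib 3 fell, with docetaxel or PF-06873600 2, and with Nutlin 1, to be read beside the same shares of all genes. Of the 13, 4 passed the filter on low counts through treated libraries. Their groups came in more than 1 order. Orm1 averaged 17.9 CPM after etoposide, 9.67 with T/P and 7.27 with palbociclib, against 0.848 in DMSO. Fgb, a fibrinogen chain, averaged 24.6 CPM after etoposide but 102 with T/P and 81.4 with palbociclib, against 7.48 in DMSO. Saa3 averaged 7.98 CPM after etoposide and 2.64 with palbociclib, against 0.897 in DMSO, and Lcn2 103 and 33.1 CPM, against 12.8 in DMSO. Hpx rose after etoposide by 2.22 ± 0.472 and Fgg by 1.27 ± 0.264, while Saa2 was not called there (adjusted p = 0.118). Cp, ceruloplasmin, fell to 623 CPM after etoposide, against 2400 CPM in DMSO (adjusted p = 7.07e-15), and Itih4 fell to 1.66 CPM, against 3.65 CPM (adjusted p = 3.29e-05).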
